A study of Mus musculus with 8 samples.

Results

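The mouse genes of the respiratory chain and ATP synthase were followed in cultured cardiac fibroblasts, for the subunits encoded in the nucleus and those encoded in mitochondrial DNA. Members were the protein-coding rows whose symbol begins with Nduf and one of the letters a, b, c, s or v and a digit, with Cox and a digit from 4 to 8, with Atp5 or Uqcr, or with mt-, together with Sdha to Sdhd and Cyc1. This gave 99 of 54532 rows of the count table, for 98 symbols: 86 nuclear and 13 mt- encoded rows. By symbol, the nuclear rows fell to complex I (37), complex II (4), complex III (9), complex IV (18) and complex V, the ATP synthase (18). The symbols are not a perfect guide to the complexes. Ndufa4 is now assigned to complex IV, Ndufa4l2 is its paralog, and Cox7a2l and Atp5s are not classical subunits. Ndufab1, the acyl carrier subunit of complex I, was not matched by the symbol pattern and is given with the electron carriers.

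All cells were cardiac fibroblasts of C57BL/6 mice at passage 2. One group of 4 libraries, lettered A to D, came from cells given a plasmid with murine Thbs4 carrying an HA tag, which encodes thrombospondin-4 (TSP-4), a secreted matrix protein. Its name in the labels, pAAV.CMV.SV40.THBS4-HA.SV40(polyA), includes CMV and SV40. The other group, also lettered A to D, received an empty plasmid named pAAV-CA. The plasmids are thus different constructs, and a difference between groups is one between plasmids. After transfection both groups had 12 h in standard medium and 24 h without serum, and poly(A) RNA was then sequenced. The labels do not say whether libraries came from separate mice or cultures, nor what a letter marks, so the spread behind every p-value is that between libraries, and it may be technical.

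The respiratory chain is a series of protein complexes in the inner mitochondrial membrane. Complex I (NADH dehydrogenase) and complex II (succinate dehydrogenase) pass electrons to ubiquinone, complex III (cytochrome bc1) passes them on to cytochrome c, and complex IV (cytochrome c oxidase) to oxygen. Complexes I, III and IV pump protons, and complex V uses the gradient to make ATP. Complex II is built from nuclear genes alone, and the other complexes combine nuclear subunits with a few made inside the mitochondrion. The heart is rich in mitochondria, and several complex IV subunits have separate heart and muscle isoforms.

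Depth was 17123735 to 22530947 counts per library. Thbs4 stood at 1469 to 2164 CPM (reads relative to library size) with the TSP-4 plasmid and at 0.0939 to 0.648 CPM with the empty plasmid, in accord with the group labels. The summed level of 12 cardiac fibroblast markers was 13393 to 19083 CPM, and each marker had at least 10 counts in every library. The 16 cardiomyocyte markers summed to 15.3 to 20.8 CPM, led by Tnnt2, and 2 of them reached 10 counts in every library. The 13 macrophage markers summed to 326 to 1855 CPM, led by Lyz2, and the 8 endothelial markers to 45.8 to 81.7 CPM. None of these markers was at 0 in all libraries. Fewer cells of a type and less RNA per cell cannot be told apart in such bulk libraries.

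Nuclear subunits of one complex did not stand at one level. Levels between genes are given as the deposited FPKM values (fragments scaled by gene length and library total), as means over the 8 libraries. The median over tested members was 26.4 FPKM for complex I, 39.4 for complex II, 49.7 for complex III, 45.9 for complex IV and 32.9 for complex V. The median over all 14723 genes tested was 4.85 FPKM. The 4 genes of complex II lay within 2.42-fold of each other and the 9 of complex III within 2.75-fold, while the tested genes of complex V spanned 58.4-fold, those of complex I 173-fold and those of complex IV 408-fold. The lowest tested rows behind the wide spans were Atp5s for complex V, Ndufb2 for complex I and Cox6a2 for complex IV. Atp5s is not a classical subunit and Cox6a2 is a heart and muscle form, so these spans reach beyond the regular subunits. FPKM divides by gene length, so the spans and orders within a complex also depend on the length listed for each gene.

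**Figure D1:**
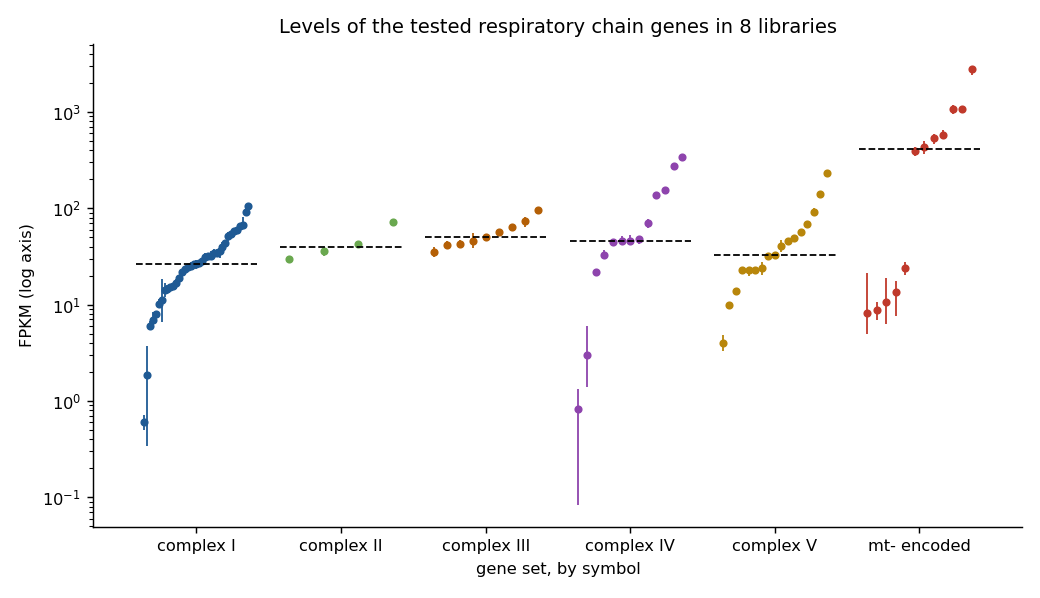
Deposited FPKM (log axis) of the 92 tested genes, grouped by complex for nuclear genes and with the mt- encoded genes in the last column; a point is the mean over 8 libraries, a vertical line runs from the lowest to the highest library and a dashed line is the median of the group. Complexes II and III are narrow, and the mt- encoded genes form a high group of 7 and a low group of 5.

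In complex I, Ndufa2, a small accessory subunit, was highest at 105 FPKM (SD 1.76, n = 8 libraries), followed by Ndufa8 at 92.0. The 7 nuclear core subunits, which carry the flavin and iron-sulfur clusters, had a median of 26.4 FPKM, and Ndufs1 was the lowest of them at 8.04. Ndufs1 had a gene length of 8086 bases and 65.9 CPM in the TSP-4 libraries, against 963 bases and 31.4 CPM for Ndufs8. The 28 accessory subunits had nearly the same median, 26.6 FPKM, with a wider spread. Ndufb2 was the lowest of them at 0.607 FPKM. Its gene length in the table was 5628 bases, against 572 for Ndufa2, and FPKM divides by that length. Its reads were few as well, at 3.18 CPM in the TSP-4 libraries against 59.9 CPM for Ndufa2.

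In complex II, Sdhd, a membrane anchor, was highest at 72.7 FPKM. Its partner anchor Sdhc was lowest at 30.0 FPKM, and the flavoprotein Sdha and iron-sulfur subunit Sdhb stood between them at 42.9 and 35.9. Complex III ran from Uqcrc2, a core subunit, at 35.0 FPKM to the small subunit Uqcr10 at 96.5. Cyc1 (cytochrome c1) stood at 42.6 and Uqcrfs1, the Rieske iron-sulfur protein, at 57.0 FPKM. These electron-carrying subunits lay inside the range of the structural ones.

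Complex V held Atp5b, the catalytic beta subunit, at 234 FPKM and Atp5a1, the alpha subunit, at 139 FPKM. The 5 genes of the F1 head and central stalk had a median of 92.2 FPKM, and Atp5e was the lowest of them at 40.5. The c ring of the rotor is encoded by Atp5g1, Atp5g2 and Atp5g3, at 13.9, 46.1 and 68.1 FPKM, which sum to 128 FPKM. Their gene lengths were 4912, 1675 and 2181 bases, and in the TSP-4 libraries they stood at 69.2, 77.8 and 148 CPM. The 8 other subunit genes had a median of 23.2 FPKM, from Atp5l at 9.87 to Atp5h at 48.8. Atp5l had the longer gene, 6443 against 1465 bases, and the 2 stood at 64.2 and 72.6 CPM in the TSP-4 libraries. A second row named Atp5o was at 0 counts in all libraries, and the first stood at 32.0 FPKM.

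Complex IV held the nuclear gene with the highest level, Cox6a1 at 338 FPKM (SD 17.4), and also the members nearest to 0. The forms found in most tissues were high: Cox8a at 277, Cox4i1 at 154, Cox6b1 at 138, Cox7a2 at 47.7 and Cox7b at 44.8 FPKM. Their heart and muscle or other tissue-specific partners were low: Cox6a2 at 0.828, Cox7a1 at 0.469 and Cox8b at 0.105 FPKM for heart and muscle, Cox4i2, the lung-enriched form, at 0.683, the testis form Cox6b2 at 3.01, Cox7b2 at 0.0263, and Cox8c listed at 0 in all libraries. In every pair the ubiquitous form was above its partner in all 8 libraries. Cox4i2, Cox7a1, Cox8b, Cox7b2 and Cox8c did not pass the filter on low counts, as did neither mt-Atp8 nor the second Atp5o row, so 92 members were tested.

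The mt- encoded genes split into a high and a low group. mt-Co1, the catalytic subunit of complex IV, stood at 2755 FPKM (SD 226, n = 8), the highest mean of all genes tested. The complex I subunit mt-Nd1 stood at 1082, mt-Cytb, the cytochrome b of complex III, at 1059, mt-Nd2 at 580.0, mt-Nd5 at 530, mt-Nd6 at 429 and mt-Nd4 at 389 FPKM. The remaining genes were far lower: mt-Co2 at 24.1, mt-Nd3 at 13.6, mt-Atp6 at 10.6, mt-Co3 at 8.71, mt-Nd4l at 8.11 and mt-Atp8 at 0.448 FPKM. These 6 are consecutive protein-coding genes of mitochondrial DNA, between mt-Co1 and mt-Nd4.

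The low genes share their letters with annotated pseudogenes on chromosome 1. In GENCODE transcripts of GRCm38, a run of rows on the minus strand of chr1:24611535-24616197 repeats this stretch of mitochondrial DNA. Gm28661 matched mt-Co2 over 681 of 681 aligned bases, Gm10925 matched mt-Atp6 over 678 of 678 and Gm28437 matched mt-Co3 over 783 of 783. Gm10222 matched mt-Nd4l without a mismatch over 294 bases and Gm28438 matched mt-Nd3 with 1 mismatch over 345. Of the high genes, mt-Nd4 was matched by Gm28439 without a mismatch over its first 876 bases, and mt-Co1 by Gm29216 over its last 492 bases with 6 mismatches. The sequences below are shown because a read from within them cannot be placed where they are identical. Capitals mark the letters that differ, and those in lower case alone are the same in the gene and the copy. The first pair begins at base 1054 of mt-Co1 (MT:6381-6440), where Gm29216 begins (chr1:24616138-24616197), and its differences all lie in the first 13 letters.
mt-Co1: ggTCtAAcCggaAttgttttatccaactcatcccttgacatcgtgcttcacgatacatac
Gm29216: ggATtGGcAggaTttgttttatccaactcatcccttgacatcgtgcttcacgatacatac
mt-Co2: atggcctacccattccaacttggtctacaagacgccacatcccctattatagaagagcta
Gm28661: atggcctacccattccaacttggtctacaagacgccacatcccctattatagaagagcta
mt-Nd3: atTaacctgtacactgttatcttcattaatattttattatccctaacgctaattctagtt
Gm28438: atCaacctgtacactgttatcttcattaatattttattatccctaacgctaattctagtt

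The share of a gene's 100-base stretches that occur in another annotated gene followed the same split. It was 97.6% to 99.9% for mt-Co2, mt-Atp6, mt-Co3, mt-Nd3 and mt-Nd4l, 60.8% for mt-Nd4 and 30.8% for mt-Co1. It was 3.19% for mt-Nd2 and 0 for mt-Nd1, mt-Nd5, mt-Nd6 and mt-Cytb. The copy rows carried few reads: Gm28661 stood at 22.5 FPKM beside 24.1 for mt-Co2, Gm10925 at 8.47, Gm28437 at 4.13, Gm10222 at 2.78 and Gm28438 at 0.727 FPKM. Gm28439 and Gm29216, the partners of mt-Nd4 and mt-Co1, stood at 2.87 and 5.59 FPKM. mt-Atp8 had no annotated copy and a share of 0, yet 0 to 4 counts per library. It begins in the 230 bases between mt-Co2 and mt-Atp6 and ends inside mt-Atp6, while the copies of those genes are 233 bases apart with no annotated row between them. Gm28661 covers bases 1 to 681 of the 684 bases of mt-Co2, which makes up the wider spacing of the copies. The share of 0 for mt-Atp8 thus holds for annotated rows only, and the letters between the 2 copies were not examined. How reads that fit several places were counted is not given in the sources used here, and the part of shared sequence in the low values was not tested. The counts of the genes with shared stretches, mt-Nd4 and mt-Co1 included, are uncertain for this reason.

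**Figure D2:**
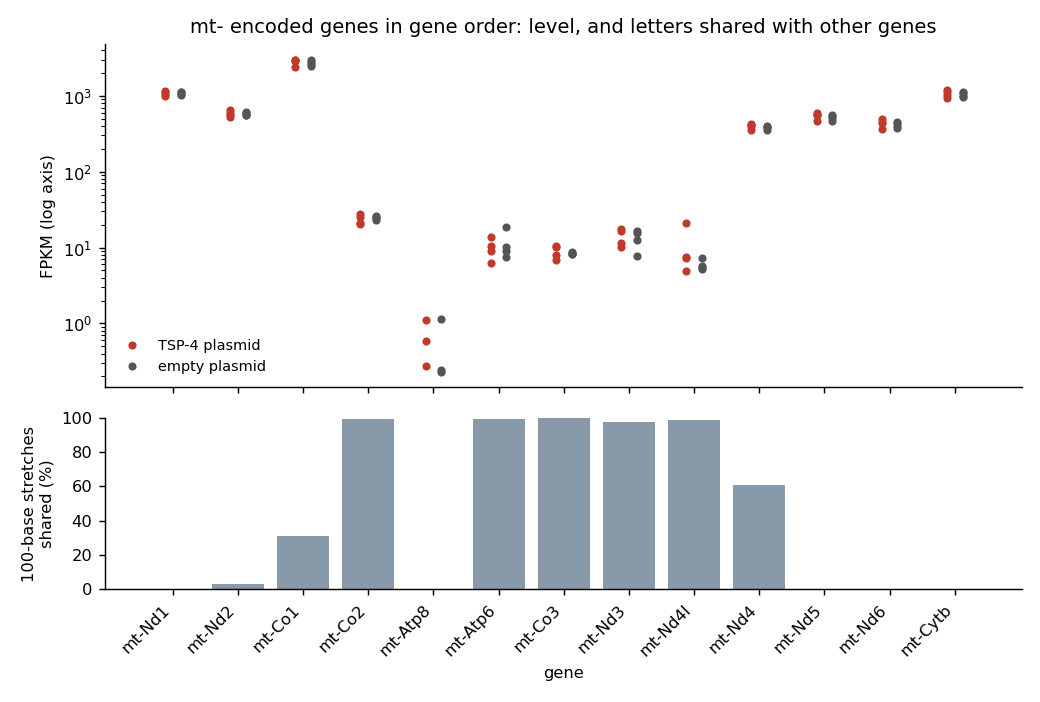
Upper panel: FPKM (log axis) of the 13 mt- encoded genes in their order on mitochondrial DNA, 1 point per library, with 0 values not drawn. Lower panel: percent of each gene's 100-base stretches that also occur in another annotated gene; the 5 genes with bars near 100% are low above, and mt-Atp8 is low without a bar.

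Nuclear members shared less. Of 86 nuclear rows, 55 shared no 100-base stretch with another gene and 12 shared over 10% of theirs. Among these were Atp5g2 with 34.7%, shared with pseudogene rows, Ndufb4 with 16.0% shared with Ndufb4c, and Ndufa12 with 11.4% shared with Gm15920. The counts of Atp5g2, Ndufb4 and Ndufa12 are uncertain for the same reason. Both strands were searched, so a gene overlapping a member on the opposite strand also counts as sharing, without being a copy elsewhere. Such overlaps covered 39.0% of the exon bases of Ndufb6 (Smim27) and 30.0% of those of Ndufa13 (Tssk6).

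The plasmid comparison asked whether respiratory chain RNA differed between cells with the Thbs4 plasmid and with the empty plasmid. No member differed by edgeR's quasi-likelihood test with Benjamini-Hochberg adjustment over all genes tested: 0 of 92 were called higher or lower, against 0.00679% of genes called higher (Thbs4 itself, 1 of 14723) and 0% called lower. At an unadjusted p under 0.05 the count was 0 of 92, beside 1.6% of all genes. DESeq2 called 0 members too. The median log2 difference, TSP-4 over empty plasmid, was -0.0017 over the 92 members, with 46 above 0 and 46 below, beside -0.00014 over all genes. The edgeR fit here left out the letter, so its SEs and intervals include the spread between letters. The 95% interval lay within 2-fold either way for 87 members and within 1.5-fold for 85. The 5 members outside 2-fold were Ndufa12, Ndufa4l2, Cox6b2, Cox6a2 and mt-Nd4l, whose coefficients of variation over the 8 libraries were 44.4% to 72.4%.

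**Figure D3:**
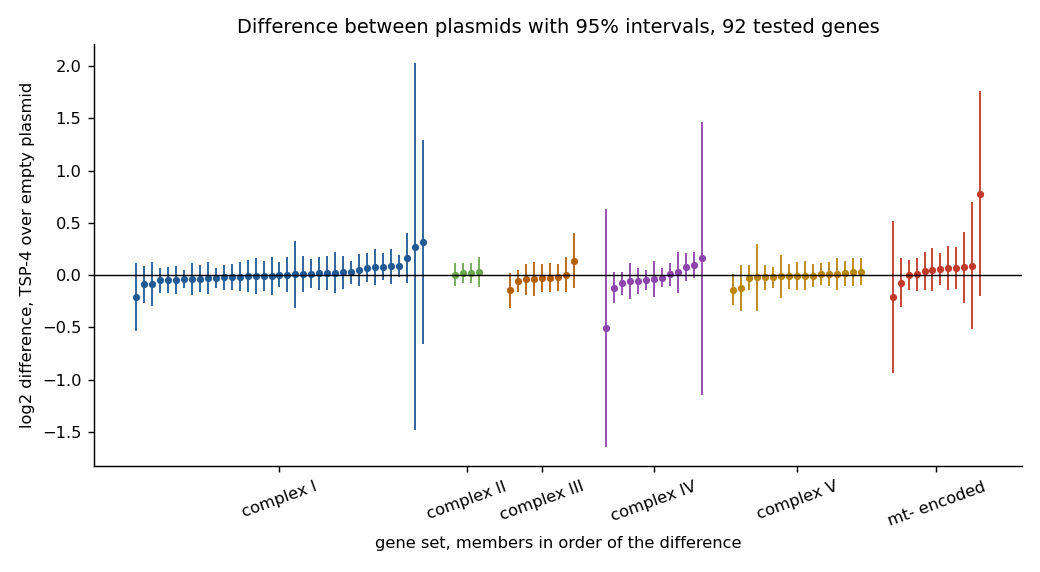
Log2 difference between the TSP-4 and the empty plasmid for the 92 tested genes, with 95% intervals from edgeR, grouped by complex and in order of the difference. All intervals cross 0, and the wide ones belong to genes with low counts or a large spread between libraries.

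By complex, the median log2 difference was 0.0030 for complex I (19 of 37 above 0), 0.021 for complex II (4 of 4), -0.028 for complex III (2 of 9), -0.038 for complex IV (5 of 13) and -0.0088 for complex V (6 of 17). The medians all lay within 0.04 of 0. In complex I, Ndufa11, a membrane-arm accessory subunit, stood at 48.6, 48.6, 47.2 and 50.2 CPM in TSP-4 libraries A to D and at 47.4, 46.2, 44.6 and 45.3 CPM with the empty plasmid. The TSP-4 library was the higher in 4 of 4 letters, yet the groups overlapped, and the log2 difference was 0.08 (SE 0.05, adjusted p = 1.00). Ndufv3, a small subunit beside the flavin site, was at 37.5 ± 3.62 CPM (SD, n = 4) against 33.5 ± 4.56, a log2 difference of 0.16 (SE 0.11).

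Complex II was the set with the lowest median spread between libraries. Sdha stood at 186, 176, 180 and 174 CPM in the TSP-4 libraries and at 179, 173, 177 and 178 CPM with the empty plasmid. The libraries of the groups were interleaved, and the log2 difference was 0.02 (95% interval -0.07 to 0.11). Sdhc differed by 0.02 (interval -0.07 to 0.12) and Sdhd by 0.0039 (interval -0.10 to 0.11). The median coefficient of variation over all 8 libraries was 2.96% for the 4 genes, beside 5.37% for all tested nuclear members and 7.72% for all genes with a mean of at least 10 CPM. For nuclear members of at least 10 CPM it was 5.20%, and for the other sets 4.59% (complex V) to 9.41% (mt- encoded). Sdhb alone lay above the nuclear median, at 5.84%.

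In complex III, Uqcr11, the smallest subunit, stood at 44.8, 41.5, 41.7 and 51.6 CPM in the TSP-4 libraries and at 49.4, 48.3, 49.5 and 51.3 CPM with the empty plasmid. TSP-4 library D lay above all empty plasmid libraries and the other TSP-4 libraries lay below them. The log2 difference was -0.14 (SE 0.07, adjusted p = 1.00). Uqcrfs1 differed by -0.06 (SE 0.05), and Uqcr10 by -0.02 (SE 0.06).

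In complex IV, Cox7c stood at 49.7 ± 2.77 CPM (SD, n = 4) in the TSP-4 libraries and 54.0 ± 3.66 with the empty plasmid, a log2 difference of -0.12 (SE 0.07), or -0.072 without empty plasmid library C. Cox6c was at 81.1 ± 2.35 against 75.7 ± 4.67 CPM, 0.10 on the log2 scale (SE 0.05), and higher with the TSP-4 plasmid in 4 of 4 letters. Cox6a1 was at 234 ± 14.0 against 243 ± 9.03 CPM. These small structural subunits thus differed in both directions by less than their intervals.

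In complex V, Atp5mpl, a small membrane subunit, was the single member whose groups did not overlap, beside 1.51% of all genes. It stood at 27.7, 26.5, 24.0 and 27.9 CPM in the TSP-4 libraries and at 28.2, 28.6, 30.6 and 29.4 CPM with the empty plasmid. The log2 difference was -0.14 (SE 0.07, adjusted p = 1.00). Atp5k, the e subunit, differed by -0.12 (SE 0.10; -0.061 without empty plasmid library C and -0.073 without TSP-4 library C), and Atp5b stood at 993 ± 55.2 against 997 ± 42.4 CPM, a log2 difference of -0.0070 (95% interval -0.14 to 0.13).

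Of the 12 tested mt- encoded genes, 10 had a log2 difference above 0, with a median of 0.055, and none was called. Among the 7 with a mean of at least 100 CPM all 7 were above 0, by at most 0.07. Mitochondrial DNA is transcribed into long precursors that are cut into the single RNAs, so these genes are not separate observations. With library totals in place of TMM factors 5 of the 7 were above 0, and leaving out single libraries left 4 to 7 above 0, with 4 of 7 and a median of 0.0073 without TSP-4 library A. mt-Co1 stood at 4625, 4593, 4444 and 3759 CPM in the TSP-4 libraries and at 4090, 4586, 4297 and 3810 CPM with the empty plasmid. Library D was the lowest of its group in both, and the log2 difference was 0.05 (SE 0.09, adjusted p = 1.00). mt-Nd4 was higher with the TSP-4 plasmid in 4 of 4 letters, by 0.06 (SE 0.07). mt-Nd4l differed by 0.78 (SE 0.43, 95% interval -0.20 to 1.76) at 1.46 to 6.33 CPM, with TSP-4 library B highest. Without that library the log2 difference was 0.15. It is one of the genes with a copy on chromosome 1.

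With the letter as a replicate block, no member was called either, beside 0.0136% of all genes. At an unadjusted p under 0.05 the blocked fit found Ndufv3, Cox6c and mt-Nd4l higher and Uqcr11 lower. These are 4 of 92 members, beside 8.12% of all genes (1.6% without the block), so the members' share was not above that of the genes at large. Their smallest adjusted p by edgeR was 0.499.

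Set side by side, nuclear and mt- encoded members took similar parts of the counts in both groups. The mt- encoded genes took 0.898% ± 0.0682 of all counts (SD, n = 4) in the TSP-4 libraries and 0.879% ± 0.0409 with the empty plasmid. The nuclear genes took 0.660% ± 0.0314 and 0.670% ± 0.0125. The log2 ratio of mt- encoded to nuclear counts was 0.52, 0.53, 0.52 and 0.20 in TSP-4 libraries A to D and 0.37, 0.50, 0.42 and 0.28 in the empty plasmid libraries. It was higher with the TSP-4 plasmid in 3 of 4 letters and lower in letter D, and the group means, 0.44 and 0.39, differed by less than either SD (0.16 and 0.09). mt-Co1 alone gave 46.8% to 49.1% of the mt- encoded counts.

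**Figure D4:**
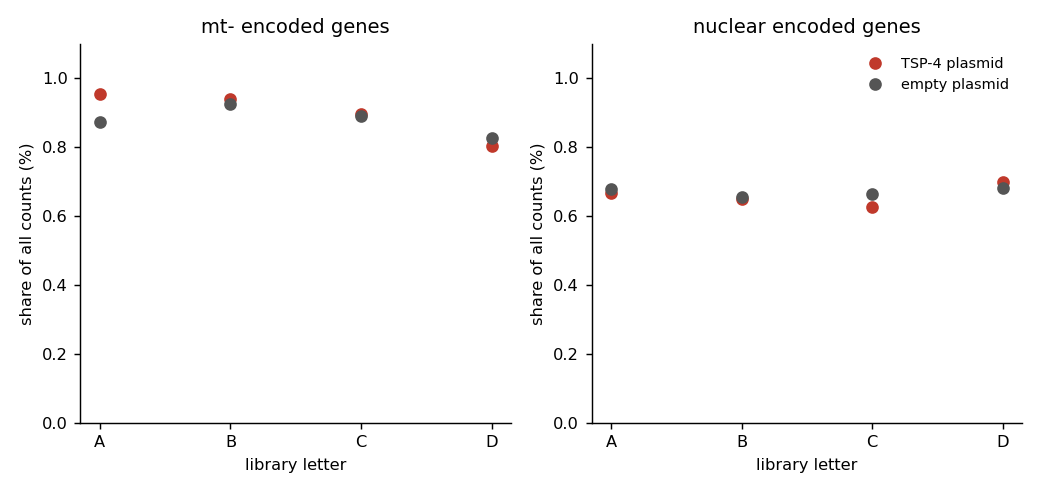
Share of all counts (%) taken by the 13 mt- encoded rows (left) and the 86 nuclear rows (right) in each library, by letter, with the TSP-4 plasmid in red and the empty plasmid in grey. The letter D libraries are lowest on the left and highest on the right, and the plasmids do not separate in either panel.

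The libraries differed more by letter than by plasmid, and there nuclear and mt- encoded members parted. Testing the 3 letter terms at equal plasmid, edgeR called 12 of 92 members (13%), beside 28.1% of all genes. The calls were 7 of 12 mt- encoded genes (58.3%) and 5 of 80 nuclear genes (6.25%). The nuclear count was 10 of 80 (12.5%) with library totals, beside 29.7% of all genes. With no filter it was 10 of 84 (11.9%), beside 16.7% of all genes. Without letter A it was 12 of 81 (14.8%), beside 23.8%. Without B it was 4 of 81 (4.94%), beside 23.2%. Without C it was 3 of 80, beside 22.4%, and without D 2 of 80, beside 20.1%. DESeq2 called 3 of 79, beside 18.6%. In this order, mt- counts were 5 of 12, 9 of 13, 7 of 12, 6 of 12, 6 of 12, 1 of 12 and 5 of 12. Among genes with a mean of at least 10 CPM, 3 of 74 nuclear members were called (4.05%) beside 33.4% of all such genes. The highest and lowest letter means differed by a median log2 of 0.12 for these 74 nuclear members, 0.21 for all genes at that level and 0.23 for the 7 mt- encoded genes of at least 100 CPM. The sets were not matched for level, with a median of 37.8 FPKM for the 74 members and 10.1 FPKM for all genes of at least 10 CPM. With that limit, the nuclear subunits were steadier between letters than genes at large by this measure. This difference between sets is a description and has no test of its own.

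The mt- encoded genes called were mt-Co1, mt-Cytb, mt-Nd2, mt-Nd4, mt-Nd4l, mt-Nd5 and mt-Nd6. DESeq2 did not call mt-Nd2 (adjusted p = 0.055) or mt-Nd4l (0.095), and edgeR with library totals did not call mt-Nd2 or mt-Nd4. Letter D was lowest for 10 of the 12 tested and for all 7 of at least 100 CPM. mt-Nd5, a proton-pumping subunit of complex I, stood at 1072, 1036, 1027 and 842 CPM in TSP-4 libraries A to D and at 938, 985, 1017 and 849 CPM with the empty plasmid. Both D libraries lay below the other 6, with a log2 range of 0.27 between letters (adjusted p = 0.0050). mt-Cytb ranged over 0.23 (adjusted p = 0.0069) and mt-Co1 over 0.28 (adjusted p = 0.0077). mt-Nd6, the gene encoded on the other strand, ranged over 0.31 (adjusted p = 0.011), at 258, 237, 229 and 191 CPM in the TSP-4 libraries and 225, 213, 237 and 197 CPM with the empty plasmid. Without letter D, 1 mt- encoded gene, mt-Nd4l, and 2 nuclear genes, Cox6b2 and Ndufa4l2, were called, beside 20.1% of all genes. The mt- calls other than mt-Nd4l were thus lost without letter D, and that of mt-Nd4l was lost without letter B.

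**Figure D5:**
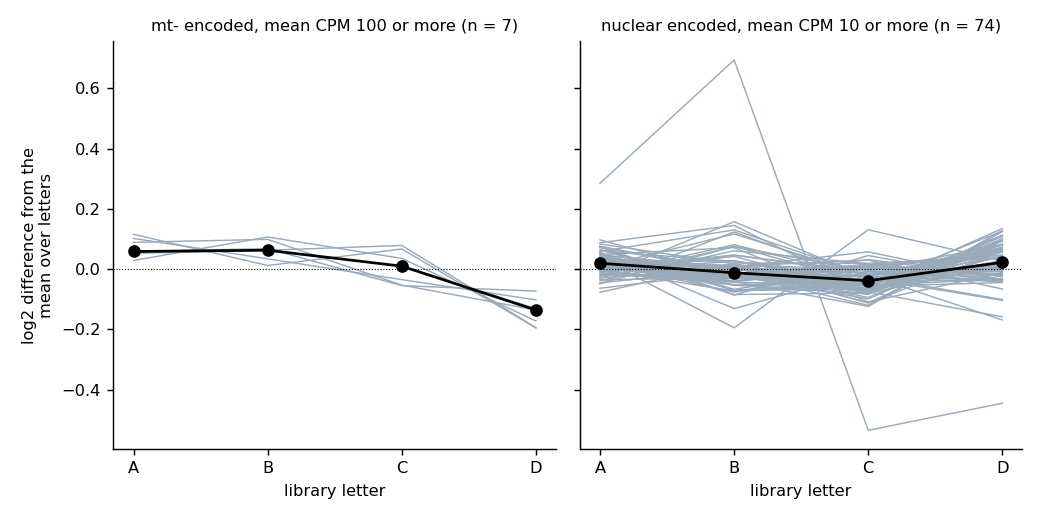
Log2 mean of each letter (both plasmids) minus the gene's mean over letters, for the 7 mt- encoded genes of at least 100 CPM (left) and the 74 nuclear genes of at least 10 CPM (right); a grey line joins the values of a gene, with no order implied, and black points are medians. All 7 genes on the left are lowest in D, and the line far from the rest on the right is Ndufa12.

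Other measures moved with letter D. The ribosomal RNA mt-Rnr1 was highest there, at a mean of 267 CPM beside 188 to 204 in the other letters, whereas mt-Rnr2 varied from 230 to 236. Summed cardiac fibroblast markers were lowest in D, at 13554 CPM beside 15868 to 18799, and 8 of the 12 markers had their lowest letter mean there. Summed macrophage markers had letter means of 342, 956, 1678 and 745 CPM for A to D, and summed cardiomyocyte markers 15.9 to 20.3 CPM. Nuclear members took their highest share of counts in D, 0.692% beside 0.645% to 0.672%. The part of any of these in the mt- encoded difference was not tested.

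The nuclear genes called between letters were Cox6b2, Ndufa4l2, Cox7a2l, Uqcrc1 and Uqcrc2. Cox6b2, the testis form of a complex IV subunit, stood at 2.98, 6.56, 2.95 and 1.63 CPM in the TSP-4 libraries and 1.55, 6.72, 2.80 and 1.67 CPM with the empty plasmid. Both B libraries were highest, with a log2 range of 1.73 (adjusted p = 0.00019). Ndufa4l2, a hypoxia-inducible paralog of Ndufa4, stood at 1.04, 3.08, 4.08 and 0.674 CPM and at 0.376, 3.71, 2.39 and 0.886 CPM. Letters B and C were high in both groups, with a log2 range of 1.74 (adjusted p = 0.00050). Ndufa4 itself stood at 58.1 FPKM and was not called.

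Cox7a2l, which helps join complexes III and IV into supercomplexes, had its lowest level in D, with a log2 range of 0.30 (adjusted p = 0.011). The core subunits of complex III were called together: Uqcrc1 ranged over 0.19 (adjusted p = 0.040) and Uqcrc2 over 0.25 (adjusted p = 0.021). Both were highest in D, opposite to mt-Cytb, the mt- encoded subunit of the same complex, which was lowest in D. Uqcrc2 shares 15.5% of its 100-base stretches with another row, and Pdzd9 on the opposite strand overlaps 19.75% of its exon bases. DESeq2's likelihood ratio test did not call these 3 nuclear genes and called Ndufa12.

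Ndufa12, a complex I accessory subunit, was the most uneven nuclear member above 10 CPM. It stood at 28.7, 27.3, 10.4 and 11.1 CPM in TSP-4 libraries A to D and at 13.5, 25.3, 11.5 and 12.3 CPM with the empty plasmid. The B libraries were both high, and the A libraries differed from each other. Its range between letters was 1.23 on the log2 scale (adjusted p = 0.15 by edgeR, 0.021 by DESeq2). It is named here after its values were seen.

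Of the genes that build and feed the chain, none was called between plasmids. edgeR called 0 members of the 9 pathway lists, and DESeq2 called 0. At an unadjusted p under 0.05 edgeR found 1 of the electron carriers and 3 of the mitochondrial DNA upkeep list, of 19 and 21 tested, beside the 1.6% of all genes given above. The groups did not overlap for 2 genes of each of these lists, and for 1 assembly factor each of complexes I and IV. In the other lists the groups overlapped for every tested gene. The share without overlap over all genes was 1.51%. The median log2 difference was -0.07 for 15 complex I assembly factors (5 above 0), -0.03 for 4 of complex II, 0.02 for 6 of complex III, -0.01 for 20 of complex IV and -0.04 for 6 of complex V. It was 0.01 for 19 electron carriers and ubiquinone synthesis genes, Ndufab1 among them, -0.05 for 21 genes of mitochondrial DNA upkeep and transcription (5 above 0), -0.02 for 9 transcriptional regulators and -0.03 for 77 mitochondrial ribosomal proteins (21 above 0). The member with the smallest p of each list did not pass the threshold. Polg2, an accessory subunit of the mitochondrial DNA polymerase, was at 2.43 ± 0.418 against 3.39 ± 0.317 CPM, -0.48 on the log2 scale (SE 0.17). Coq8a, a ubiquinone synthesis gene, was at 5.15 ± 0.678 against 3.95 ± 0.156 CPM, 0.38 (SE 0.14). Ndufaf6, a complex I assembly factor, differed by -0.27 (SE 0.13), and Pet100, a complex IV assembly factor, by -0.30 (SE 0.25). Smaller differences were found for Bcs1l, which inserts the Rieske protein (0.16), Gabpb1, a subunit of the GABP factor (0.11), Mrpl20 (-0.11), Sdhaf4 (-0.07) and Tmem242 (0.06).

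Promoter letters, which the choice of genes did not use, were searched for 3 motifs. RefSeq windows (GRCm38.p6) from 250 bases before to 50 after the start were matched for 68 of 85 nuclear symbols. The core of the NRF1 motif, GCGC, then any base, then TGCGC, on either strand, was found in 17 of 68 (25.0%), beside 11.0% of 10601 tested genes and 5.19% of all 27025 genes with a window. The YY1 core AAGATGGC was found in 14.7% (beside 5.10% and 3.19%) and the GABPA core CCGGAAGT in 7.35% (beside 8.73% and 4.31%). Matches of different motifs overlapped in 0 windows of members. NRF1, the nuclear respiratory factor, and GABPA are known regulators of these genes. By complex, a window with the NRF1 core was found for 7 of 32 matched genes of complex I, 2 of 3 of complex II, 1 of 5 of complex III, 1 of 13 of complex IV and 6 of 15 of complex V. The 250 bases before the start are shown for both complex II genes with the core and for Ndufs6, an accessory subunit of complex I, with the core in capitals. They lie at chr13:74350241-74350490 (Sdha), chr9:50603850-50604099 (Sdhd) and chr13:73328483-73328732 (Ndufs6), all on the minus strand.
Sdha: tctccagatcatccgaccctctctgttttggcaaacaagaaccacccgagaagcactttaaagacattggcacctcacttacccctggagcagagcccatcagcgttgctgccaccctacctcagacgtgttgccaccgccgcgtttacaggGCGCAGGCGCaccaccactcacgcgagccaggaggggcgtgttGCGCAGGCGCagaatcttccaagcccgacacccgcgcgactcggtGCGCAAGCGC
Sdhd: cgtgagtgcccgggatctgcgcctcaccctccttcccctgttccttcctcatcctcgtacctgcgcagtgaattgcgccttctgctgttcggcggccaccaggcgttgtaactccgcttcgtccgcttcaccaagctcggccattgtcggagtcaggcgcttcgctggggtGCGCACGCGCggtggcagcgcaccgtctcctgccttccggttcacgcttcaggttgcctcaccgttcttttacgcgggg
Ndufs6: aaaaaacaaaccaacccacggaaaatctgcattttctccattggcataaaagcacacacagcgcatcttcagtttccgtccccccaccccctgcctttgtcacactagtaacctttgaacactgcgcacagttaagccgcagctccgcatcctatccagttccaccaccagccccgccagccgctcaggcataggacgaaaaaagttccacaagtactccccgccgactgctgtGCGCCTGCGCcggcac
The Sdha stretch holds the core in 3 places and the others in 1. A match is a description of the letters and not evidence that a factor binds. Sdha and Sdhd were not called between plasmids, as given above, and Ndufs6 stood at 28.5 FPKM and was not called in either comparison.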

How the data were processed

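Poly(A) RNA of 8 libraries was used. Whole-number read counts per gene were deposited by the authors, and a second deposited table holds FPKM. Per the submitters' processing notes, the tools were HTSeq 0.6.1, TopHat2 2.0, CASAVA and Cufflinks 2.1.1 and the builds mm10 and GRCm38.p6; the labels give the NEBNext Ultra kit. Neither the strand setting nor the handling of multi-mapping reads was given in the sources used here, so overlapping genes and near-identical copies are uncertain. The members and lists were chosen with earlier results of these data known.

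Counts of all genes were fitted with edgeR 4.0.16 in R 4.3.3 (robust quasi-likelihood, TMM factors, its filter at a minimum count of 10), with plasmid as the term and Benjamini-Hochberg adjustment at 0.05 over 14723 genes. DESeq2 1.42.0, other scalings, no filter, a block and left-out libraries were alternatives. The scripts were tested on simulated data. CPM is scaled to the library's total count over the genes that passed the filter, multiplied by its TMM factor. Levels use FPKM. Named members are, per complex and for the mt- genes, the 2 with the smallest p between plasmids and the one with the highest FPKM, the 6 with the smallest p between letters, and 1 per pathway list. The values of 1 member are not reported here on their own. Of 235 list entries, 2 (Coa1, Fastkd4) were not matched. Shared stretches were counted in GENCODE transcripts of GRCm38 at 100 bases, on both strands. Every pair of libraries differed by more than sampling noise (mean chi-square 4.88 or more, where noise gives about 1). The lowest value, for the D libraries, includes Thbs4 itself (31675 against 3 counts), and no value without Thbs4 was computed. The lowest pair within a plasmid group, TSP-4 libraries B and C, stood at 10.29.

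The labels do not say that the letters pair libraries. Deviations from group means correlated between same-letter libraries of the 2 groups with r of 0.564 to 0.699, and with other letters at most 0.354, so the letters were taken to pair them. The SEs and intervals printed between plasmids still come from the fit without the letter, which does not use this pairing. The fit with the block does, and its calls are given beside.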

Additional observations from a re-analysis of the deposited data

Results flagged for a closer look

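In groups of 4 libraries, a library was looked at again where its gap to the nearest other, divided by the range of the group, passed Dixon's 95% critical value. Of 54 group values examined 5 did so, and chance gives about 5% of groups. The ratio was 0.869 for Sdhc and 0.916 for Sdhd, both in empty plasmid library C, where these complex II genes stood at 92.4 and 84.3 CPM beside 98.2 to 99.1 and 91.3 to 92.0 in the other 3. It was 0.837 for mt-Nd4l in TSP-4 library B, at 6.33 CPM beside 1.46 to 2.26. It was 0.946 for the log2 ratio of mt- encoded to nuclear counts in TSP-4 library D, at 0.20 beside 0.52 to 0.53, and 0.897 for the total counts of TSP-4 library A, at 22530947 beside 17123735 to 17681837.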

How the results depend on the processing

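The count of members called between plasmids was 0 in each alternative run: DESeq2, RLE factors, library totals, no filter, the replicate block in edgeR and in DESeq2, each library left out, and each letter left out with the block. The replicate block changed no call of a member, and with it Sdhd was 0.0040. The 12 members called between letters became 19 with no filter on low counts, and 3 to 19 when a letter was left out, fewest without D. The share of all genes called moved as well, from 28.1% to 16.7% with no filter. It was 20.1% to 23.8% with a letter left out, also lowest without D. Small differences between plasmids changed sign in some fits, and the cause was not tested. Sdhd was -0.0087 with library totals. Over left-out libraries or letters, log2 differences ranged from -0.0014 to 0.038 for Sdhc, -0.025 to 0.026 for Sdhd, -0.057 to 0.040 for Uqcr10, -0.036 to 0.022 for Atp5b, -0.32 to 0.81 for Cox6b2, -0.19 to 0.85 for Ndufa4l2 and -0.0058 to 0.093 for mt-Cytb. Among differences that kept their sign, mt-Nd4l ranged from 0.15 to 1.01, Atp5k from -0.20 to -0.016 and Cox7c from -0.17 to -0.045. Counting error is largest for members with few counts, such as Cox6a2, at under 1 CPM in each library.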
